A study of Mus musculus with 3 samples.

Results

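A set of 8 genes of the Notch pathway were followed across kidney and spleen CD4+ T cells of lupus-prone mice. They are the receptor genes Notch1 and Notch2, the nuclear factor genes Rbpj and Maml2, and Nrarp, Dtx1, Dtx4 and Hes1, which encode feedback inhibitors, ubiquitin ligases and a target of the pathway. The members were taken by symbol, 8 of the 32285 gene rows of each deposited matrix, and all 8 had counts. They were read in the cells of the first of 2 days of the study's tag key, summed per mouse and organ and per group of cells.

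Notch receptors sit on the cell surface and are cut when a ligand on a neighbouring cell binds them. The freed intracellular part enters the nucleus, joins the DNA-binding protein Rbpj and recruits a Mastermind-like coactivator such as Maml2, in place of corepressors that Rbpj otherwise holds. In T cells the pathway directs lineage choice in the thymus and bears on the differentiation of helper cells, and Nrarp, Dtx1 and Hes1 are among its usual target genes.

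The study asked how inducible loss of the histone methyltransferase Ezh2 in CD4+ T cells bears on T cells that enter the kidney in lupus-prone MRL/lpr mice, a strain with lymphoid expansion and nephritis. All mice carried Ezh2fl/fl. Those without Cre are called WT and those with CD4-Cre/ERT2, a Cre under a Cd4 promoter that tamoxifen activates, are called KO, as in the tag key. Both genotypes were gavaged with tamoxifen in corn oil at 300 mg/kg, from 10 weeks of age (preventative) or 14 weeks (therapeutic) until 24 weeks. Which of these starts applied to a given animal is not stated. Before the cross to floxed mice, the Cre line went through 6 backcross generations onto MRL/lpr. Littermates of both genotypes shared housing, and which exons are floxed is not given. Cells of 10 floxed and 9 Cre mice were sorted as CD4+ T cells, marked with an antibody tag per mouse and organ, and read by sequencing of transcript 5′ ends. The key names 9 mice, of which 2 KO (KO1, KO2) and 3 WT (WT1, WT2, WT3) could be told apart, each with both organs. The matrices number the tags and the key lists their sequences, so the numbers were taken in the order of the key. The organ this gave was right for all 10 blocks of cells, while mouse and genotype have no such check beyond the level of Ezh2. Kidneys were dissociated with enzymes under heating and spleens were mashed, so organ and dissociation cannot be told apart in any kidney and spleen comparison here.

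The 10 sums held 13271 cells (4947 kidney, 8324 spleen), from 215 cells and 887079 unique molecular identifiers (UMIs, each 1 captured transcript) in kidney KO2 to 2377 cells and 9931440 UMIs in spleen WT1. No cell barcode was shared between the first-day blocks. Levels are CPM, the count of a gene scaled to a fixed library total, with TMM scaling unless the library total is named. The T cell marker Cd3e lay between 1148 and 1572 CPM and Cd4 between 226 and 464 CPM in all sums. Ezh2, the targeted gene, was at 74.7 and 58.8 CPM in kidney of KO1 and KO2 and at 91.9, 162 and 144 CPM in WT1, WT2 and WT3. In spleen it was at 51.1 and 53.9 CPM in the KO mice and at 69.7, 169 and 156 CPM in the WT mice. Every KO value lay below every WT value of its organ, and WT1 was nearest to the KO mice. Where bulk-like sums differ, fewer cells of a type and less RNA per cell cannot be told apart.

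The promoters of 3 members are shown because these genes differed between the organs, Nrarp and Rbpj being higher in kidney and Dtx1 lower. The windows run from 250 bases before to 50 bases after an annotated start (RefSeq, GRCm38.p6), which can lie inside a gene's span. Of the 8 members, 6 have 1 or more windows in the table used, and Hes1 and Dtx4 have none. The core letters bound by Rbpj, TGGGAA, were searched on both strands, and capitals mark each match. Nrarp is at chr2:25180508-25180807 (plus strand), Dtx1 at chr5:120711620-120711919 (minus strand) and Rbpj at chr5:53590096-53590395 (plus strand).
Nrarp: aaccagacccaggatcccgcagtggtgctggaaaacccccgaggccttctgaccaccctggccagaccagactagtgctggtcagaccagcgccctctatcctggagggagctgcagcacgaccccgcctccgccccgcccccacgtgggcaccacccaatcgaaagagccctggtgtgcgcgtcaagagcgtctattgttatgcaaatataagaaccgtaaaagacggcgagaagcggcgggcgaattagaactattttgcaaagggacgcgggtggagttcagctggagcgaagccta
Dtx1: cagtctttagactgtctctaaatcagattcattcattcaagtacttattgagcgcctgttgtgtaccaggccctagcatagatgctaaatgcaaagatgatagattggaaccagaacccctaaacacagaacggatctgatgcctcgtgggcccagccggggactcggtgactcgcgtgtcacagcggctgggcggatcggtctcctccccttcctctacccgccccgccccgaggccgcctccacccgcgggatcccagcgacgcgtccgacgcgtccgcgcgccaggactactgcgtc
Rbpj: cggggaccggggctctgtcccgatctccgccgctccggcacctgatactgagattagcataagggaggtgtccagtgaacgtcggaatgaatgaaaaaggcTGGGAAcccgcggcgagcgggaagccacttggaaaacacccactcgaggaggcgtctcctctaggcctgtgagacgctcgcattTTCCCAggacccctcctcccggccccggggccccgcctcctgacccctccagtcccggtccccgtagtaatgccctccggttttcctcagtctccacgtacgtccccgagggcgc
The Rbpj window holds TGGGAA once on each strand, at -149 and -65 relative to the window's own start, with 78 bases between them. That start lies inside the gene's span (chr5:53555779-53657445) and not at its outer end. A match on both strands occurs in 1.81% of all 32851 windows, and at least 1 match in 25.6%. The windows of Nrarp, Dtx1, Notch1 and Notch2 hold no match, and a second and overlapping Rbpj window holds 1. Of the 2 Maml2 windows the one at chr9:13662210-13662509 holds 1, and it too lies inside the gene's span (chr9:13296561-13709533). The longer form GTGGGAA, which contains the core and is found in 6.38% of all windows, is in none of the members' windows. These matches describe letters within the windows only.

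Between the organs, 5 of the 7 members that could be tested differed. Nrarp, Dtx4, Rbpj and Notch2 were higher in kidney than in spleen, by about 6.35-fold, 4.91-fold, 2.06-fold and 1.61-fold, and Dtx1 was 2.41-fold lower. Notch1 and Maml2 did not pass the test, and Hes1 was too low to test. The test was edgeR's quasi-likelihood test over all genes with Benjamini-Hochberg adjustment at 0.05 and genotype as a covariate. It called 22.8% of the 11868 genes tested, 12.8% higher and 9.98% lower in kidney, so calls were common in this comparison. With the mouse as a block it called 4120 genes in place of 2703, with the same number of members. Upper-quartile scaling turned the split of 1519 higher and 1184 lower genes to 1145 and 1887, and kept 5 members called.

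**Figure D1:**
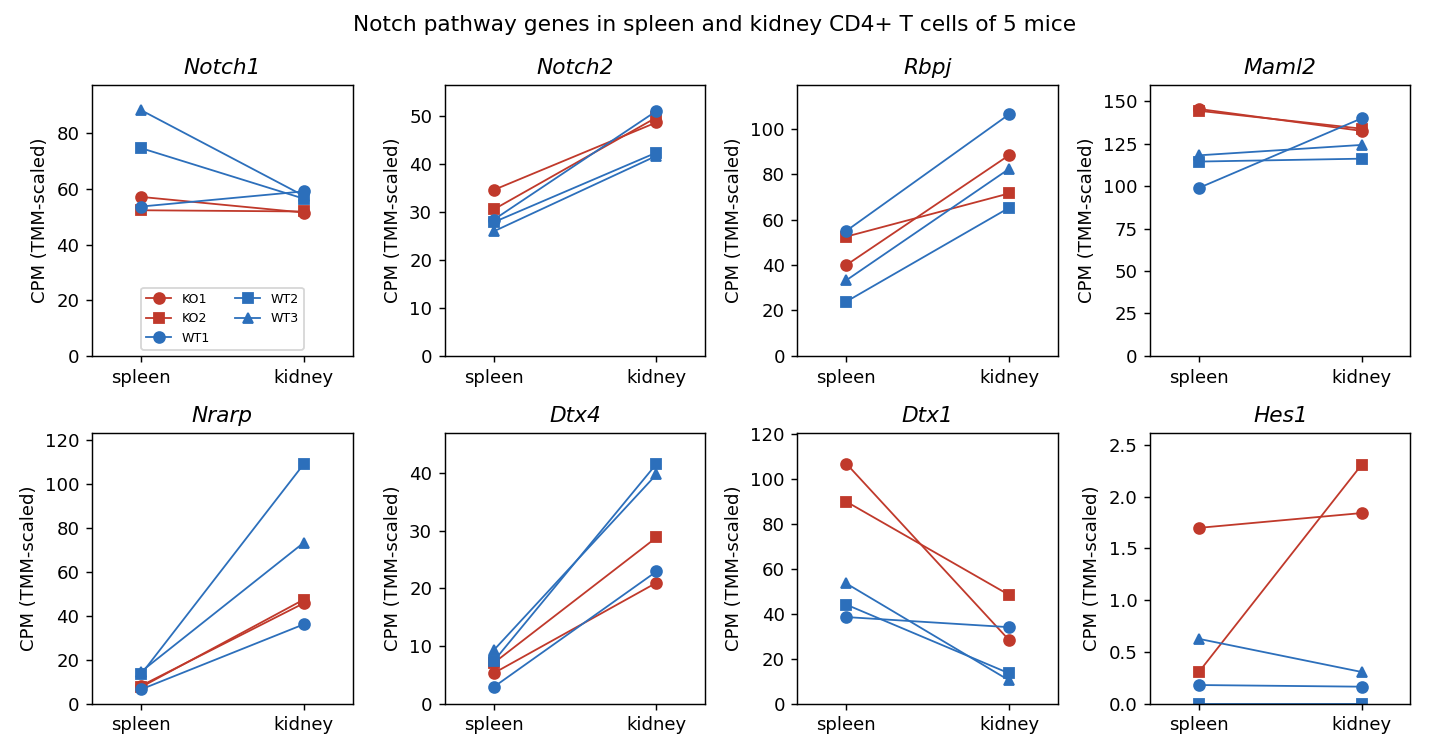
Level of each member (y axis, TMM-scaled CPM, from 0, a scale per gene) in spleen and kidney (x axis) of 5 mice, with a line per mouse, KO mice in red and WT mice in blue. Nrarp, Dtx4, Rbpj and Notch2 rise along every line and Dtx1 falls along every line, least in WT1 (38.6 to 34.1 CPM).

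Of the receptors, Notch1 did not pass between the organs and Notch2 did. Notch1 (chr2:26457902-26503822), the receptor that commits thymic progenitors to the T lineage, was at 51.5 and 51.9 CPM in kidney of KO1 and KO2 and at 59.2, 56.5 and 57.5 CPM in WT1 to WT3. In spleen it was at 57.2 and 52.4 CPM in the KO mice and at 53.7, 74.7 and 88.4 CPM in the WT mice. The organs overlapped, with spleen WT2 and WT3 above all other sums. The log2 difference, kidney minus spleen, was -0.21 ± 0.13 (SE, n = 5 mice, edgeR adjusted p = 0.247).

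Notch2 (chr3:98013538-98150367), the second receptor, was at 48.6, 49.6, 51.0, 42.3 and 41.6 CPM in kidney of KO1, KO2, WT1, WT2 and WT3, and at 34.5, 30.5, 28.3, 27.8 and 25.9 CPM in spleen of the same mice. Every kidney value exceeded every spleen value. The log2 difference was 0.69 ± 0.09 (SE, edgeR adjusted p = 0.000569), and it was positive in 5 of 5 mice. Of the genes for the other receptors, Notch3 and Notch4, neither reached the filter on low counts.

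The nuclear complex split. Rbpj (chr5:53555779-53657445), the DNA-binding factor of the pathway, was at 88.4, 71.5, 106, 65.2 and 82.3 CPM in kidney and at 40.0, 52.5, 55.0, 23.9 and 33.3 CPM in spleen of the same mice in that order. The lowest kidney value lay above the highest spleen value. Its log2 difference was 1.04 ± 0.22 (SE, edgeR adjusted p = 0.00746). Maml2 (chr9:13296561-13709533), a coactivator that joins Notch and Rbpj, ranged from 116 to 140 CPM in kidney and from 98.9 to 145 CPM in spleen, and its difference of 0.09 ± 0.09 (SE, edgeR adjusted p = 0.479) did not pass.

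The feedback genes held the largest differences among the members. Nrarp (chr2:25180758-25183339), a small ankyrin-repeat protein that binds the Notch and Rbpj complex and limits its activity, was at 45.7, 47.3, 36.0, 109 and 73.2 CPM in kidney of KO1, KO2, WT1, WT2 and WT3. In spleen the same mice held 8.11, 7.50, 6.48, 13.3 and 14.5 CPM. Kidney WT2 and WT3 were the highest in kidney, as they were in spleen. The log2 difference was 2.67 ± 0.31 (SE, edgeR adjusted p = 0.000268).

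Dtx4 (chr19:12466329-12502179), a Deltex-family ubiquitin ligase, was at 21.0, 28.8, 22.9, 41.6 and 39.8 CPM in kidney and at 5.28, 7.04, 2.88, 7.36 and 9.26 CPM in spleen of these mice. No kidney value came near a spleen value, and WT2 and WT3 again held the highest levels in each organ. The log2 difference was 2.30 ± 0.31 (SE, edgeR adjusted p = 0.000621).

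Dtx1 (chr5:120680203-120711867), the Deltex ligase known as a Notch target and for its part in T cell anergy, went the other way. It was at 28.3, 48.5, 34.1, 13.5 and 10.4 CPM in kidney and at 107, 90.03, 38.6, 44.1 and 53.6 CPM in spleen. The organs overlapped across mice, since kidney KO2 lay above spleen WT1 and WT2, but each mouse was lower in kidney (0 of 5 mice higher). The log2 difference was -1.27 ± 0.28 (SE, edgeR adjusted p = 0.00975). Without KO1 it was -1.10 and no longer passed (adjusted p = 0.0731), and without WT1 it was -1.72.

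Hes1 (chr16:30065357-30067796), a transcriptional repressor and a classic Notch target, gave 9 UMIs in all kidney cells and 18 in all spleen cells. Kidney held 5 and 2 UMIs in KO1 and KO2 and 1, 0 and 1 in WT1, WT2 and WT3, and spleen held 9 and 2 in the KO mice and 2, 0 and 5 in the WT mice. The counts of 0 in WT2 allow levels of up to 0.497 CPM in kidney and 0.734 CPM in spleen, as counting error only. It did not pass the filter on low counts and entered no test.

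**Figure D2:**
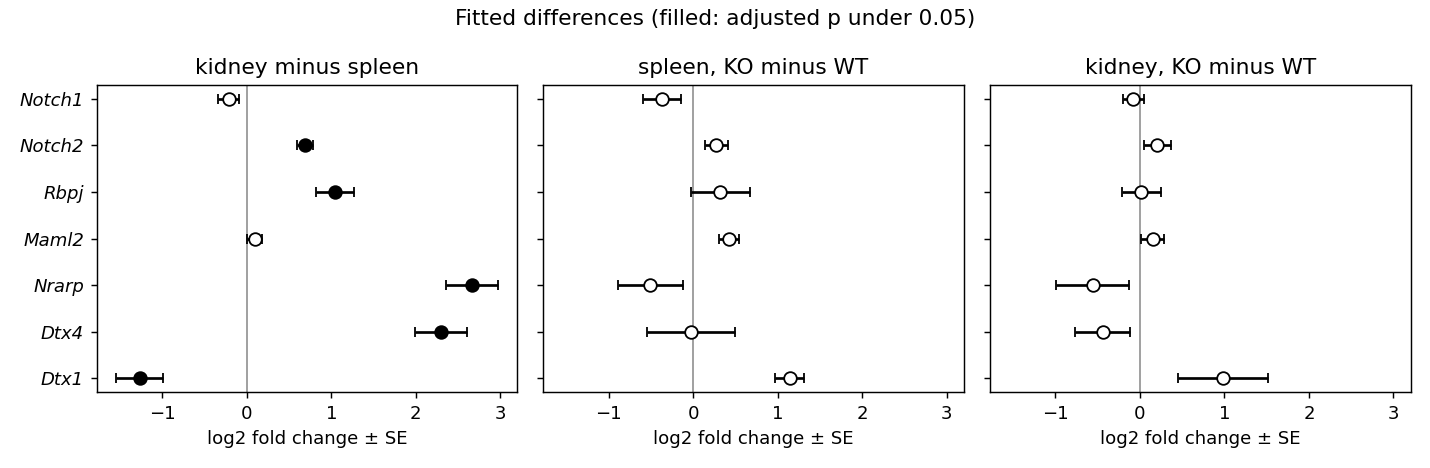
Fitted log2 fold changes (x axis) with their standard errors for the 7 tested members (y axis) in 3 comparisons, filled where the adjusted p is under 0.05. The 5 filled points are all for kidney against spleen, and none is for KO against WT.

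Of 64 genes in wider lists of the pathway, members included, 52 could be tested between the organs, and 7 were higher and 6 lower in kidney, beside 12.8% higher and 9.98% lower among all genes tested. The lists had a median log2 difference of 0.02 against -0.05 over all genes tested. In receptor processing (9 tested), Furin, a protease that cuts Notch receptors on their way to the surface, rose by 1.01 ± 0.12 (SE, edgeR adjusted p = 0.00034) and Psenen, a subunit of gamma-secretase, fell by 0.38 on the log2 scale (adjusted p = 0.00452). Among turnover genes and inhibitors (12 tested), Neurl3, a Neuralized-family ligase, was higher by 2.45 ± 0.39 (SE, edgeR adjusted p = 0.00175), with 103 to 341 CPM in kidney and 15.4 to 52.1 CPM in spleen. Dtx3l, another Deltex-family ligase, was lower by -0.87 (edgeR adjusted p = 0.00156). Of 9 corepressors 1 passed, Tle4 of the Groucho family, at 0.46 (adjusted p = 0.0356).

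Of the 10 target genes tested, 4 were lower in kidney and Nrarp alone was higher, where 9.98% of all genes were lower and 12.8% higher. Beside Dtx1 the lower ones were Hes6 (-0.59, edgeR adjusted p = 0.00692), Myc, a growth regulator (-0.73, adjusted p = 0.0315), and Bcl11b, a T-lineage factor (-0.28, adjusted p = 0.0371). None of 5 glycosyltransferase genes passed, and of the ligand genes only Jag1 could be tested (2.003, adjusted p = 0.105). Some genes stand in more than 1 list.

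Transcripts of other cells were compared as summed levels per sum. Of 7 CD8, gamma-delta and NK markers 4 were tested and 3 were higher in kidney, with summed levels of 43.5 to 227 CPM in kidney and 22.8 to 74.1 CPM in spleen. Leaving out every cell with a Cd8a or Cd8b1 UMI kept 5 members called. B cell markers summed to 133 to 371 CPM in kidney and 263 to 399.8 CPM in spleen, with 0 of the 4 tested called, and kidney tubule markers summed to at most 1.84 and 3.38 CPM. Myeloid markers summed to 86.5 to 158 CPM in kidney and 102 to 137 CPM in spleen, and of 2 tested 1 was lower in kidney. Tissue residency markers moved with the organ, 5 of 7 higher and 1 lower in kidney, at 3639 to 4846 CPM in kidney and 1333 to 2776 CPM in spleen, and their part in the members' differences was not tested.

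Cells were then grouped into 17 clusters, with the members and all list and marker genes left out of the clustering. Nearly all cells of 2 clusters came from kidney, and in these Nrarp and Dtx4 lay above every spleen cluster sum outside cluster 11. Cluster 1 (2098 of its 2107 cells from kidney, led by Esm1, Ctla2a and Dusp2 beside Nrarp) and cluster 2 (1715 of 1755 from kidney, led by Ramp3, Ifitm2 and Ifitm3) took no class name. In cluster 1, by library total, Nrarp was at 86.1, 122 and 85.4 CPM in kidney of WT1, WT2 and WT3 and Dtx4 at 26.1, 45.0 and 41.9 CPM. In cluster 2 Nrarp was at 62.5, 51.7, 32.9, 73.5 and 30.9 CPM in KO1, KO2, WT1, WT2 and WT3 and Dtx4 at 30.9, 49.2, 25.8, 62.0 and 46.4 CPM. In spleen, Nrarp did not exceed 20.4 CPM in any sum of a cluster other than cluster 11, where it reached 39.0 CPM, and Dtx4 did not exceed 20.8 CPM outside cluster 11, where it reached 40.1 CPM. These levels between clusters are a description, since clusters come from the same cells.

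Cluster 1 made up 79.9% and 74.9% of kidney cells in WT2 and WT3, but 4.07% and 9.77% in KO1 and KO2 and 10.9% in WT1. Cluster 2 made up 57.0%, 47.0% and 63.7% in KO1, KO2 and WT1 and 5.75% and 9.88% in WT2 and WT3. The mice with most of cluster 1 were thus those with the highest Nrarp and Dtx4 and the lowest Dtx1 in the kidney sums. In cluster 1 Dtx1 was at 8.01 to 10.8 CPM, and in cluster 2 at 25.8 to 75.8 CPM.

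**Figure D3:**
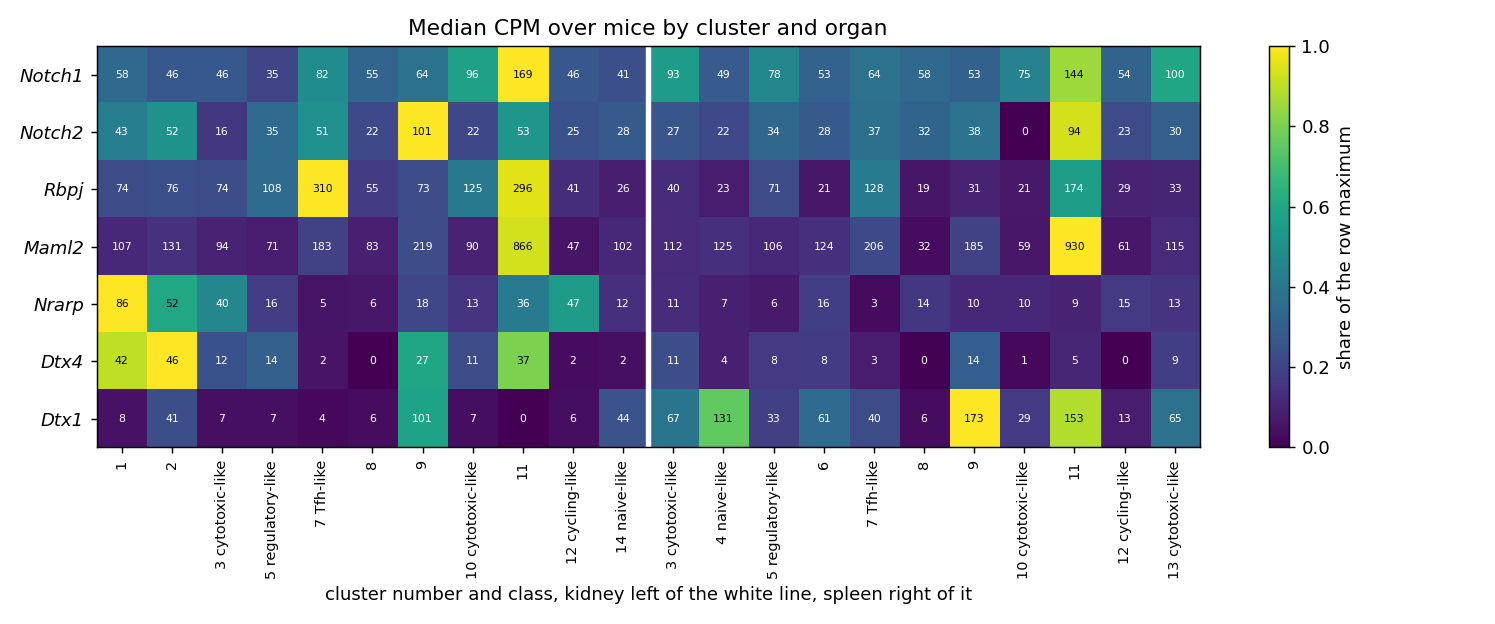
Median CPM over mice (numbers, by library total) of 7 members (rows) in each cluster and organ (columns), coloured as a share of the row maximum, kidney left of the white line and spleen right of it; Tfh-like is follicular helper-like. Nrarp is highest in kidney cluster 1, Rbpj in kidney Tfh-like cells, Maml2 in cluster 11 and Dtx1 in spleen cluster 9.

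Dtx1 was also compared between the organs within the 4 classes that had at least 2 sums in each organ, and passed in 3 of them, always lower in kidney. In cycling-like cells, which had 1 kidney sum and no test, it was at 6.31 CPM in kidney WT2 and at 4.29 CPM in spleen WT2, from 4 UMIs each, with 23.4 and 13.4 CPM in spleen of WT1 and WT3. The unnamed cluster 8 overlapped too, with 5.53 CPM in kidney WT1 and 4.80 to 18.8 CPM in spleen. Naive-like cells are resting cells with Igfbp4 among their leading genes. In spleen of KO1, KO2 and WT1 their Dtx1 was at 128, 131 and 155 CPM. In kidney of KO1 and KO2 it was at 35.4 and 57.1 CPM. No kidney value reached a spleen value. The log2 difference was -1.56 ± 0.29 (SE, edgeR adjusted p = 0.00515), where 10.4% of 4454 genes were called. This fit had no genotype term, since the kidney sums were of KO mice only while spleen held 1 WT mouse as well. Spleen cells of this class were nearly all of cluster 4, with Lef1 among its leading genes. Kidney cells were mostly of cluster 14, with Plaur, Dusp10 and Maff but not Lef1 among its leading genes. The organ comparison in this class is thus mostly between unlike clusters.

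In regulatory-like cells, which express Foxp3, Dtx1 was at 31.0, 34.2, 34.4 and 23.6 CPM in spleen of KO1, KO2, WT1 and WT3 and at 6.91 and 7.88 CPM in kidney of KO1 and WT1. The difference was -2.01 ± 0.54 (SE, edgeR adjusted p = 0.0359), with 4.86% of 7875 genes called. In follicular helper-like cells, which provide help to B cells, it was at 39.9, 30.6 and 57.6 CPM in spleen of KO1, KO2 and WT1 and at 4.79 and 2.61 CPM in kidney of KO1 and WT1, from 1 UMI each. The fitted difference there was -3.73 ± 0.66 (SE, edgeR adjusted p = 0.00159), with 3.07% of 6945 genes called.

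Cytotoxic-like cells pool cluster 3, with Ccl3, Ccl4 and Gzmb among its leading genes, and clusters 10 and 13. Cluster 3 held 100 kidney and 1604 spleen cells. Cluster 10, with Coch, Klrd1 and Klrc1 among its leading genes, held 174 and 450, so the mix of clusters differs between the organs. In this class Dtx1 was at 35.5 to 120 CPM in 5 spleen sums and at 6.28, 18.6 and 6.02 CPM in kidney of WT1, WT2 and WT3. The groups did not overlap, and the difference of -2.56 ± 0.61 (SE, edgeR adjusted p = 0.0714) did not pass. That fit had no genotype term either, since kidney held WT mice only, and 0.947% of 5387 genes were called. The other class calls for Dtx1 rest on few sums: they were lost without KO1 in naive-like cells (-1.21, adjusted p = 0.211), without WT1 in follicular helper-like cells (-2.67, adjusted p = 0.346), and without KO1 (-1.91, adjusted p = 0.314) or WT1 (-2.06, adjusted p = 0.188) in regulatory-like cells, where Dtx1 could not be tested without KO2. At resolution 1.5 it was -1.30 there (adjusted p = 0.0843).

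Among the named classes Rbpj was highest in follicular helper-like cells, and higher in kidney than in spleen there. It was at 302 and 318 CPM in kidney of KO1 and WT1 and at 128, 140 and 123 CPM in spleen of KO1, KO2 and WT1. All kidney values lay above all spleen values, and the log2 difference was 1.34 ± 0.20 (SE, edgeR adjusted p = 0.000347; 1.27 and adjusted p = 0.0762 without WT1). In cytotoxic-like cells it was at 132, 60.5 and 78.3 CPM in kidney and at 13.3 to 48.4 CPM in spleen, a difference of 1.41 ± 0.29 (SE, edgeR adjusted p = 0.0438) that lost its call when any 1 of the 5 mice was left out (1.03 to 1.58, adjusted p 0.0616 to 0.377). Regulatory-like cells held 89.8 and 126 CPM in kidney and 63.3 to 81.4 CPM in spleen (0.66 ± 0.24, adjusted p = 0.135). Naive-like cells held the least, 21.4 and 23.6 CPM in kidney and 21.1 to 30.9 CPM in spleen, and were not tested for Rbpj. At a finer clustering (resolution 1.5) the class that took the follicular helper-like name was another set of spleen cells, with Rbpj at 42.8 and 44.9 CPM, so the level belongs to cluster 7 and not to every cell so named.

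**Figure D4:**
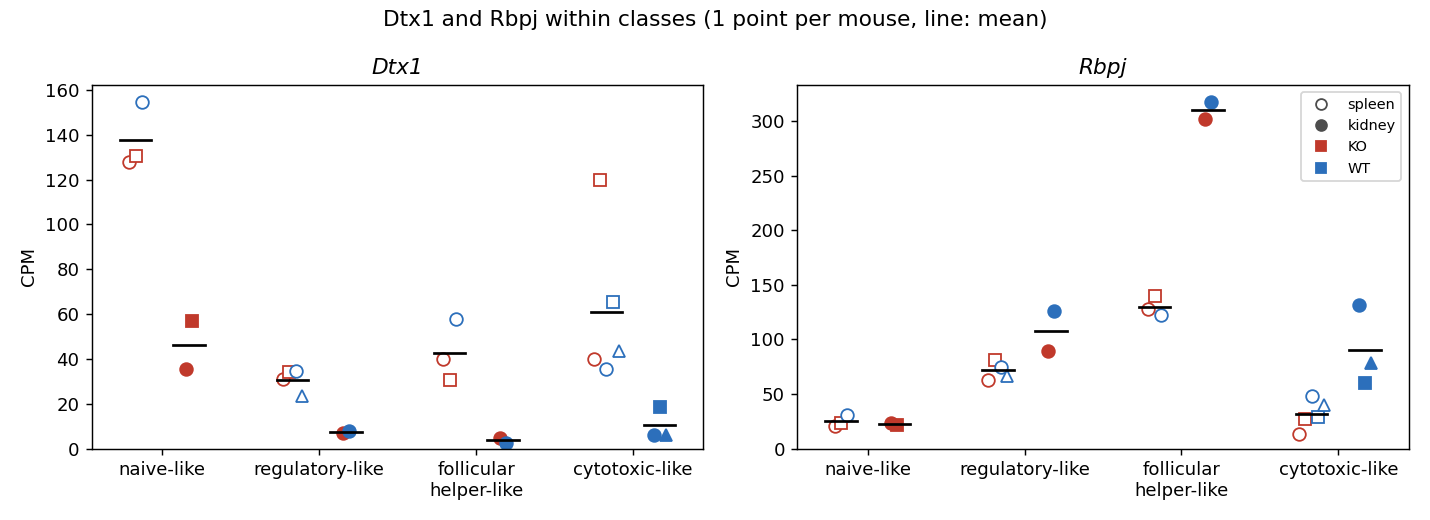
Dtx1 (left) and Rbpj (right) in 4 classes (x axis) in CPM by library total (y axis, from 0), with 1 point per mouse, open for spleen and filled for kidney, KO in red and WT in blue, and a line at the mean. Kidney Dtx1 lies below spleen Dtx1 in each of these 4 classes, and Rbpj reaches 302 and 318 CPM in kidney follicular helper-like cells.

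Notch1 in regulatory-like cells was at 34.5 and 35.5 CPM in kidney and at 64.3 to 98.4 CPM in spleen, a difference of -0.98 ± 0.32 (SE, edgeR adjusted p = 0.0919) that did not pass, but did at resolution 1.5 (-1.01, adjusted p = 0.0428). Notch2 was at most 28.0 CPM in any cytotoxic-like sum, against 39.1 and 62.3 CPM in kidney and 34.8 to 59.3 CPM in spleen follicular helper-like cells. Nrarp and Dtx4 could be tested between organs only in regulatory-like cells, where Nrarp differed by 1.38 ± 0.88 (SE, edgeR adjusted p = 0.426) and Dtx4 by 1.23 ± 0.82 (SE, adjusted p = 0.449), and neither passed. At resolution 1.5 Nrarp passed there (1.91, adjusted p = 0.0484). That fit, which also called Notch1, called 7.82% of 7593 genes.

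Maml2 set 1 cluster apart. In cluster 11 it was at 967, 866 and 701 CPM in kidney of WT1, WT2 and WT3 and at 1181, 902, 959 and 546 CPM in spleen of KO1, KO2, WT1 and WT3, against 24.0 to 221 CPM in every other cluster sum. The cells of cluster 11 had a median of 1771 UMIs, under that of all first-day blocks (3181 to 3645), and were led by the noncoding RNAs Lncpint and Gm26917 beside Maml2. The Maml2 gene spans 412973 bases, against 2582 for Nrarp. Whether low depth or nuclear RNA bears on the level was not tested. Rbpj in this cluster was at 235 to 324 CPM in kidney and 129 to 250.8 CPM in spleen. Leaving the cluster out kept 5 members called between the organs.

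Between genotypes no member passed in either organ. In spleen the member with the smallest p was Dtx1, at 107 and 90.03 CPM in the KO mice and 38.6, 44.1 and 53.6 CPM in the WT mice. Every KO value lay above every WT value, and the log2 difference, KO minus WT, was 1.14 ± 0.17 (SE, n = 2 and 3, edgeR adjusted p = 0.0689). Maml2, at 145 and 144 CPM against 98.9, 114 and 118 CPM, differed by 0.42 ± 0.12 (SE, edgeR adjusted p = 0.178). The test called 0.275% of 11647 genes in spleen. An unadjusted p under 0.05 was held by 1968 genes, with 2 members, Dtx1 and Maml2, among them. Of the members DESeq2 called Dtx1 alone (1.13, adjusted p = 3.49e-05), among 636 of 19838 genes called. EdgeR with no filter on low counts also called no other member (Dtx1 1.12, adjusted p = 0.00624), among 480 of 19838 genes called.

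Notch2 did not overlap between genotypes in spleen either (34.5 and 30.5 CPM against 25.9 to 28.3 CPM), while Notch1, Nrarp, Dtx4 and Rbpj did. How many of all genes separated the KO from the WT mice in spleen was not counted, so these separations have no share beside them. Notch1 differed by -0.37 ± 0.22 (SE, adjusted p = 0.458), Nrarp by -0.51 ± 0.38 (SE, adjusted p = 0.552), Notch2 by 0.27 ± 0.13 (SE, adjusted p = 0.369), Rbpj by 0.32 ± 0.35 (SE, adjusted p = 0.694) and Dtx4 by -0.03 ± 0.52 (SE, adjusted p = 0.986), all by edgeR. WT1 lay apart from the other WT mice in several of these, with Notch1 at 53.7 CPM beside 74.7 and 88.4 CPM. Without WT1 the edgeR fit called 2282 of 11270 genes, in place of 32 of 11647, and without WT2 or WT3 it called 0. Among the 2282 were 4 members, Dtx1 (1.02, adjusted p = 0.00396), Notch1 (-0.56, adjusted p = 0.0213), Nrarp (-0.82, adjusted p = 0.0334) and Rbpj (0.70, adjusted p = 0.0412). From the wider lists Tle1, a Groucho corepressor, was the 1 gene of 50 tested that passed in spleen, with 8.68 and 6.28 CPM in KO mice and 0.54, 0.69 and 0.626 CPM in WT mice (3.61 ± 0.38, SE, edgeR adjusted p = 0.0404).

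The cells that made up the spleen sums differed with genotype. Naive-like cells, the class with high Dtx1, were 51.9% and 36.8% of spleen cells in KO1 and KO2 and 1.81%, 2.17% and 0.747% in WT1, WT2 and WT3. Their 9 markers summed to 5758 and 4613 CPM in the KO mice and to 1325 to 2321 CPM in the WT mice, and 2 of the 9 were called higher. The 10 cytotoxic markers summed to 1717 and 2769 CPM in the KO mice and to 7062 to 34164 CPM in the WT mice, and 2 were called lower. Without naive-like and cycling-like cells Dtx1 was at 82.9 and 63.5 CPM in the KO mice and at 38.2, 58.9 and 56.6 CPM in the WT mice. Each KO value still lay above each WT value. The difference was 0.58 (edgeR adjusted p = 0.52), in a fit that called 0 of 10841 genes. Cluster 9, the spleen cluster with the highest Dtx1, was still in these sums. It made up 13.4% and 10.6% of spleen cells in KO1 and KO2 and 5.72%, 0.978% and 3.50% in WT1, WT2 and WT3. Its part in the remaining difference was not tested.

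Within classes the spleen comparison called no member. In regulatory-like cells Dtx1 differed by 0.00060 ± 0.31 (SE, edgeR adjusted p = 0.9999), with 0.135% of 8869 genes called. In cytotoxic-like cells, where 0% of 8461 genes were called and 553 had an unadjusted p under 0.05 (Notch1 the 1 member among them), Dtx1 differed by 0.94 ± 0.43 (SE, edgeR adjusted p = 0.759). KO1 there rests on 31 cells and 3 Dtx1 UMIs. In spleen cluster 9, which has the highest Dtx1, the KO mice held 191 and 176 CPM and WT1 and WT3 held 170 and 158 CPM, a difference of 0.11 ± 0.18 (SE, edgeR adjusted p = 0.96), with 0.226% of 6641 genes called.

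In kidney the genotype comparison called 0.00969% of 10321 genes, a single gene that is no member. This gene is 1 of the CD8, gamma-delta and NK markers and was higher in KO mice. In kidney these markers summed to 210 to 227 CPM in the KO mice and to 43.5 to 128 CPM in the WT mice. None of the 7 tested members had an unadjusted p under 0.05, and DESeq2 called none. Dtx1 was at 28.3 and 48.5 CPM in KO mice and at 34.1, 13.5 and 10.4 CPM in WT mice, and overlapped through WT1. With no filter on low counts its difference was 0.94 (edgeR adjusted p = 0.0333), where 554 of 18119 genes were called. In the main fit it was 0.98 ± 0.53 (SE, edgeR adjusted p = 0.582). Nrarp differed by -0.56 ± 0.44 (SE, adjusted p = 0.689), Dtx4 by -0.44 ± 0.32 (SE, adjusted p = 0.671), Notch2 by 0.20 ± 0.16 (SE, adjusted p = 0.687), Maml2 by 0.15 ± 0.14 (SE, adjusted p = 0.734), Notch1 by -0.08 ± 0.13 (SE, adjusted p = 0.883) and Rbpj by 0.02 ± 0.23 (SE, adjusted p = 0.9995). Among the tested members Notch1 was lower in both KO mice than in any WT mouse, and the others overlapped. How many of all genes did not overlap in kidney was not counted. The untested Hes1 did not overlap, with 1.84 and 2.31 CPM in the KO mice and 0.164, 0 and 0.306 CPM in the WT mice, from 7 or fewer UMIs a genotype. This separation was absent in kidney cells with no Cd8a or Cd8b1 UMI. There Hes1 was at 0 CPM in KO1 and KO2 and at 0.178, 0 and 0.319 CPM in WT1, WT2 and WT3. Without WT1 the edgeR fit called 1079 of 10055 genes, among them Dtx1 (1.65, adjusted p = 0.012) and Nrarp (-0.90, adjusted p = 0.0283).

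Cluster 2 is the one kidney cluster with enough cells of all 5 mice for a genotype comparison inside it. There Dtx1 was at 38.2 and 56.6 CPM in KO1 and KO2 and at 41.3, 75.8 and 25.8 CPM in WT1, WT2 and WT3, and the genotypes overlapped. The difference was -0.08 ± 0.34 (SE, edgeR adjusted p = 0.9994), and for Nrarp it was 0.50 ± 0.33 (SE, adjusted p = 0.946). Among all genes 0.0561% of 5346 were called, and none of the 7 members, with none at an unadjusted p under 0.05.

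The difference of the genotype effect between the organs was tested as an interaction term. It called 0% of 11868 genes (422 at an unadjusted p under 0.05, 3 by DESeq2) and no member. The member with the smallest unadjusted p was Maml2 (-0.29 ± 0.17, SE, edgeR adjusted p = 1). Maml2 was lower in kidney than in spleen in both KO mice and higher in kidney in all 3 WT mice. These signs turned in single mice with other sets of cells, such as in WT2 without cluster 11.

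Genes whose log2 CPM followed a member most closely over the 10 sums were taken from 5962 genes of at least 20 mean CPM. The sums fall into 2 organs and come from 5 mice, so they are not independent, and the correlations are a description only. Nrarp went with Tiprl (r = 0.998), Ramac (0.988) and Dbf4 (0.983), Notch2 with Fosl2 (0.993), Dtx4 with Saraf (0.987), Rbpj with Akap13 (0.964), and Dtx1 with Pop5 (0.963). The closest to Notch1 was Mknk1 (0.934) and to Maml2 Flt3l (0.932). Hes1 was too low for such a comparison.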

How the data were processed

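The authors deposited 1 matrix per organ of whole UMI counts, made with Cell Ranger 7.1.0 per the file headers; per the submitters' processing notes Seurat 5.0.1 and mm10 (GRCm38) were also used. Of 13368 first-day cells, 13 led by another tag were dropped and 13337 with at least 200 genes and under 10% mitochondrial UMIs were kept. At resolution 1, 66 cells in clusters led by other cells were left out of the sums. Cells were assigned to mice by barcode block, with tag numbers read in the order of the key, and 1 tag led each block in at least 99.5% of cells. Second-day blocks repeat 2399 barcodes under several mice and entered no comparison. Clusters came from the Leiden method (igraph 0.11.9, 2000 variable genes, 30 components, 15 neighbours, resolution 1, 167 genes left out), and a class name ("-like") needed a mean marker log2 fold of 1, 3 raised markers and 1 among 10 leading genes. Names rest on rebuilt clusters, and no doublet caller was run. Sums needed at least 30 cells. The tests used edgeR 4.0.16 under R 4.3.3 (TMM, filterByExpr, adjusted p under 0.05). The SE is the log2 fold change over the root of the F statistic. Organ sums of a mouse share an animal, per the tag key. Their deviations correlated at 0.705, 0.621 and 0.384 in WT1 to WT3. The KO mice gave a single value, 0.009, since 2 mice deviate from their mean by opposite amounts. In simulated counts 200 genes were changed by a log2 of 2. Of these, 87.5% (organ, 11868 genes), 71% (KO in spleen, 11647 genes), 77% (KO in kidney, 10321 genes) and 50.5% (interaction, 11868 genes) were called. Unchanged genes called were 11, 15, 9 and 14 in that order. Smaller changes were not simulated. All 8 members are named; of the lists, called genes, at most 4 of smallest p. Members and lists were chosen with earlier results of these data known. T cell receptor sequences were not used here.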

Additional observations from a re-analysis of the deposited data

Results flagged for a closer look

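For Maml2, the Mastermind-like coactivator, the sign of the difference between the organs was negative in both KO mice and positive in all 3 WT mice. The log2 difference, kidney minus spleen, had a mean of -0.12 over the 2 KO animals (SD 0.018). Over the 3 WT animals the mean was 0.20 (SD 0.26), with 0.50 in WT1 and 0.021 and 0.073, near 0, in WT2 and WT3. The signs did not hold in other sets of cells. Without cluster 11, Maml2 in WT2 was at 104 CPM in kidney and 108 CPM in spleen. Without cells with a Cd8a or Cd8b1 UMI, Maml2 in KO1 was at 149 and 145 CPM. With all kept cells, Maml2 in WT3 was at 115 and 119 CPM. The interaction test of edgeR did not pass for it (adjusted p = 1).

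The second-day cells, which the tag key ties to no single mouse here, held counts of all 8 members. In these 2399 cells Notch1 was at 40.4, Notch2 at 49.1, Nrarp at 43.6, Dtx1 at 29.97, Dtx4 at 15.4, Rbpj at 95.4 and Maml2 at 164 CPM by library total. Hes1 was at 2.81 CPM there (27 UMIs in 20 cells), against 0.454 CPM in first-day kidney cells and 0.537 CPM in first-day spleen cells. No filter on genes, mitochondrial UMIs, tags or clusters was put on the second-day cells. The first-day values come after these filters, so the sets of cells are unlike. There is no control for the second-day cells, and the difference in Hes1 was not tested.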

How the results depend on the processing

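The organ comparison called 5 members under each of the 9 alternatives that kept all mice, and 4 to 5 when a mouse was left out. Genes called there were 4120 with the replicate block (mouse) and 1479 to 2928 with a mouse left out; the block changed no member's call. Member counts in the spleen genotype comparison were 1 by DESeq2, 1 with no filter and 0 to 4 with a mouse left out; genes called were 636 (DESeq2), 480 (no filter), 284 (all 10 sums in 1 fit), 0 (without naive-like and cycling-like cells), 66 (without cells with a Cd8a or Cd8b1 UMI) and 0 to 2282 with a mouse left out. In kidney, member counts were 1 with no filter and 0 to 2 with a mouse left out; genes were 52, 554 and 2 by those 3 changes, 0 with all kept cells, 2 without naive-like and cycling-like cells, 0 without Cd8 cells and 0 to 1079 with a mouse left out. For the interaction, genes were 3 (DESeq2), 2 (no filter), 2 (replicate block) and 0 to 2 with a mouse left out. Within classes, organ calls of members were 0 (cytotoxic-like) and 2 (regulatory-like, Notch1 and Nrarp in place of Dtx1) at resolution 1.5, and with a mouse left out 0 in cytotoxic-like, 0 to 2 in follicular helper-like, 0 to 1 in naive-like and 0 to 1 in regulatory-like cells; the follicular helper-like organ fit could not be made at resolution 1.5. Signs turned only for members far from the threshold: Maml2 between organs (-0.00050 with upper-quartile scaling; -0.0096 to 0.16 with a mouse left out), Dtx4 in spleen (0.0018 with upper-quartile scaling, 0.0582 without naive-like and cycling-like cells; -0.42 to 0.34) and Rbpj in kidney (-0.011 by DESeq2, -0.0281 with no filter and with all 10 sums, -0.019 without cluster 11; -0.16 to 0.24). The causes were not tested. The Cd8 and cluster 11 alternatives, the class fits without a mouse and the fits in clusters 2 and 9 were chosen after seeing the data. Where a mouse left out leaves 1 in an arm, that mouse is assumed to vary like the other group. Nothing says that GEO's 3 samples are replicates; the mice are. Depth limits Hes1 and the kidney class sums, several of which hold under 5 UMIs of Dtx1.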
